A study of Mus musculus with 4 samples.

Results

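Macrophages from the visceral fat of lean mice were compared between BLIMP1 conditional knockout mice (CKO) and control mice (WT), both on a normal diet. A cell counted as a macrophage if it had at least 500 UMIs, at least 300 detected genes, at most 10% of its UMIs from mitochondrial genes, and at least 1 UMI in at least 2 of 5 macrophage genes, C1qa, C1qb, Csf1r, Adgre1 and Fcgr1. A UMI, or unique molecular identifier, marks 1 captured RNA molecule. The rule kept 2633 cells of WT normal diet and 3214 cells of CKO normal diet, 5847 of the 21867 cells in the series. Each cell was thinned at random to 2000 UMIs, which left 2317 WT and 2794 CKO cells, since 316 and 420 cells were shallower. The thinned cells of a library were pooled and gene levels are given as UMIs scaled to a pool of 1000000 (CPM).

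The series holds 4 libraries, 1 for each of WT and CKO on a high-fat diet (HFD) and WT and CKO on a normal diet. The cells came from the perigonadal fat pad (gWAT). Live CD45+Lin-CD11b+CD64+ cells were sorted for 10x Genomics Chromium 3′ libraries, so that they carried the leukocyte marker CD45, the myeloid integrin CD11b and the Fc receptor CD64 and lacked lineage markers. The promoter that drives the deletion, the deleted exons, the age and strain of the mice, the length of the diet and the number of mice pooled in a library do not appear in the sources used here. With 1 library per group, library and genotype cannot be told apart, no test across mice is possible, and every interval below is a 95% interval for counting error only.

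BLIMP1, encoded by Prdm1, is a zinc finger transcription factor that mainly represses genes by recruiting histone-modifying enzymes. It is best known as the switch to plasma cells in B lymphocytes, and it is also expressed in T cells and tissue macrophages, where it is tied to the control of cytokine genes. Fat of lean animals holds resident macrophages that line the vessels, carry the hyaluronan receptor LYVE1 and the folate receptor encoded by Folr2, and clear debris, beside cells recruited from blood monocytes through the receptor CCR2. In obesity, lipid-laden macrophages marked by the receptor TREM2 are added to these.

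The 2 normal-diet libraries were close in depth, with medians of 4546 UMIs and 1962 genes per kept cell in WT and 4297.5 UMIs and 1943 genes in CKO. Mitochondrial genes took a median of 1.68% and 1.84% of UMIs. The marker rule kept 71.1% of the cells that passed the depth and mitochondrial limits in WT and 74.7% in CKO, and 1 cell barcode was shared by the kept cells of both libraries. The macrophage genes of the rule stood at 1589 CPM in WT and 1853 CPM in CKO for C1qa, 1013 and 1173 for C1qb, 478 and 450 for Csf1r, 383 and 380 for Adgre1, and 52.2 and 50.1 for Fcgr1, the gene of CD64. Summed markers of other cells were low in both libraries. The 18 lymphoid genes, 4 of them at 0 in both, summed to 28.5 CPM in WT and 20.8 CPM in CKO. That list leaves out the immunoglobulin genes Igkc, at 0.647 and 59.6 CPM, and Ighm, at 196 and 302 CPM. The 10 neutrophil genes summed to 40.3 and 48.1 CPM, most of it Csf3r, at 30.9 and 29.2 CPM. The 12 genes of fibroblasts and adipose progenitors summed to 189 and 201 CPM, most of it Gsn, at 144 and 153 CPM. The 11 endothelial and mural genes summed to 112 and 68.0 CPM, most of it Fabp4, which macrophages also express. The nuclear RNA Malat1 had a CKO over WT ratio of 0.765, and Gm42418, which overlaps a ribosomal RNA repeat, had 1.17. With both left out of the totals, together with ribosomal protein and mitochondrial genes, the median log2 ratio of all measured genes was 0.02, next to 0.03 with them.

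Prdm1 itself (chromosome 10, 44437177 to 44528501, minus strand, GRCm38) was at 33.02 CPM in WT and 34.90 CPM in CKO. The ratio was 1.06 (0.85 to 1.31), so the RNA was not lower in the library labelled CKO. A Prdm1 UMI was found in 5.48% of WT cells (4.59 to 6.49) and 6.01% of CKO cells (5.16 to 6.96) at equal depth, and in 12.7% and 13.8% without thinning. Under HFD the levels were 21.5 CPM in WT and 21.6 CPM in CKO. A 3′ count does not check a deletion that leaves the end of the transcript in place, and which part was deleted does not appear in the sources.

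Few genes differed between the genotypes under normal diet. Of 6363 genes with at least 20 CPM in 1 library, 15 were more than 1.5 times higher in CKO (0.236% of those measured) and 28 more than 1.5 times lower (0.44%), by the ratio of CPM after adding 10 CPM to both libraries, the scale of all log2 ratios below. At 1.3 times, 98 were higher (1.54%) and 108 lower (1.7%). With WT and CKO weighted to the same shares of resident-gate cells (defined below), 9 genes were more than 1.5 times higher. With all UMIs of all kept cells in place of thinned ones, 43 and 64 genes passed 1.3 times and 14 were over 1.5 times lower. The median log2 ratio of all measured genes was 0.03. The same comparison under HFD had 282 of 5888 genes more than 1.5 times higher (4.79%) and 853 more than 1.5 times lower (14.5%).

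**Figure D1:**
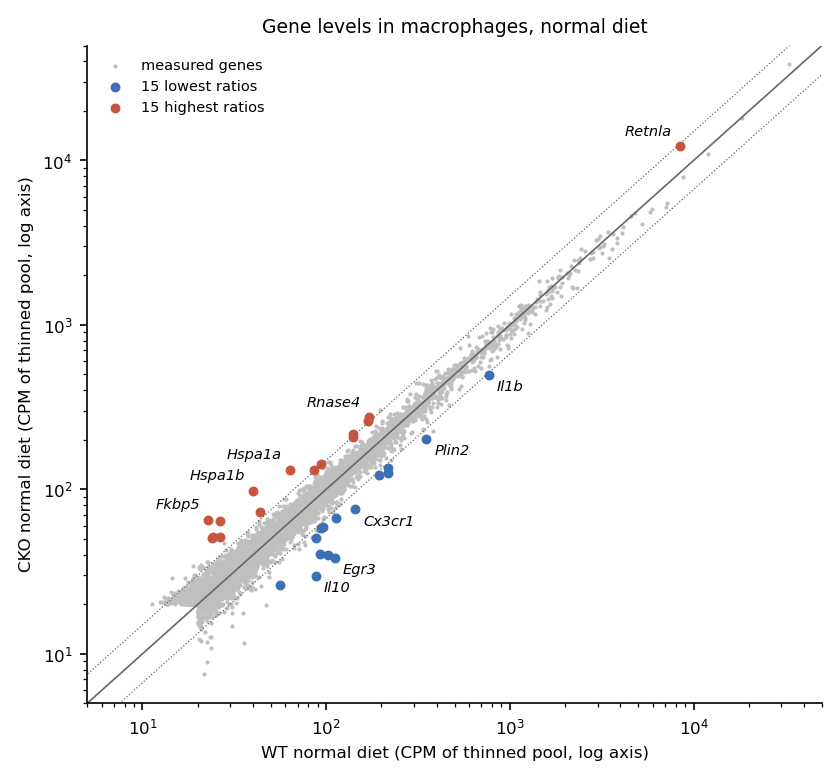
CPM of the thinned pool in WT (horizontal, log axis) against CKO (vertical, log axis) for the genes measured under normal diet, with the 15 lowest ratios in blue and the 15 highest in red. The solid line is equality and the dotted lines are 1.5-fold differences; most genes lie between the dotted lines, and Egr3 and Il10 lie farthest below them among the blue genes. Igkc, at 0.647 CPM in WT, lies off the axis.

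The gene of the anti-inflammatory cytokine interleukin 10 stood out among the lower genes. Il10 (chromosome 1, 131019845 to 131024974) was at 87.6 CPM in WT and 29.9 CPM in CKO, 2.93-fold lower (2.44 to 3.53). An Il10 UMI was found in 8.80% of WT cells (7.68 to 10.0) and 2.72% of CKO cells (2.15 to 3.39) at equal depth, and in 16.7% and 5.69% without thinning. The cells that had one held a mean of 1.99 Il10 UMIs in WT and 2.20 in CKO. At this depth a lower level in every cell also lowers the share of cells with a UMI. The share of cells with an Il10 UMI was lower in CKO, while the mean per cell that had one was not. Whether fewer cells expressed Il10 or each held less of its RNA was not tested. Lymphoid cells, which had at least 2 lymphoid markers and none of the 5 macrophage genes, served as the background of free RNA: 0 of 43 WT and 0 of 34 CKO thinned lymphoid cells had an Il10 UMI, which allows shares of up to 6.98% and 8.82%. Those limits lie above the share in CKO, so the lymphoid cells are too few to bound it. They were also chosen for lacking the 5 macrophage genes, which favours droplets with little free macrophage RNA. Their counts, here and below, may therefore understate the background.

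Most other genes of IL-10 signalling were near 1. Of 13 measured members of the list, Il10 alone was more than 1.5 times lower (0.44% of all measured genes were) and Nfil3, a transcription factor induced by IL-10, was more than 1.3 times lower, at 109 CPM in WT and 72.8 in CKO. The receptor genes Il10ra, at 204 and 186 CPM, and Il10rb, at 111 and 123 CPM, had log2 ratios of −0.13 and 0.14. Stat3, the transcription factor downstream of the receptor, was at 666 and 693 CPM. Socs3, a feedback inhibitor and target of STAT3, was at 153 CPM in WT and 197 CPM in CKO, a ratio of 1.29 (1.17 to 1.42). The list's median log2 ratio was 0.02, next to 0.03 for all measured genes.

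Immediate early genes, transcription factors switched on within minutes of a stimulus, included Egr3, the lowest log2 ratio of (CPM + 10) in the comparison; by CPM alone Il10 was lower. Egr3 (chromosome 14, 70077203 to 70082614) was at 111 CPM in WT and 38.5 CPM in CKO, 2.89-fold lower (2.46 to 3.40). Egr2 (chromosome 10, 67535475 to 67542188) was at 216 and 126 CPM, 1.72-fold lower (1.56 to 1.90). Shares of cells with an Egr2 UMI were 26.9% in WT and 18.5% in CKO, against 0 of 43 and 0 of 34 lymphoid cells. For Egr3 the shares were 12.99% and 5.798%, but 7 of 43 and 3 of 34 lymphoid cells also had it, so the lymphoid cells give no background for it. The orphan nuclear receptors Nr4a3, at 255 and 175 CPM, and Nr4a1, at 979 and 745 CPM, had ratios of 0.686 (0.630 to 0.748) and 0.760 (0.729 to 0.793).

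The difference was uneven across the immediate early list. Of 20 measured members, 2 were more than 1.5 times lower, 5 more than 1.3 times lower and 0 more than 1.3 times higher. The shares of all measured genes were 0.44%, 1.7% and 1.54%. The list had a median log2 ratio of −0.17. The AP-1 subunit genes Fos, at 2770 and 2752 CPM, and Jun, at 780 and 778 CPM, were at nearly the same level in both libraries. Dusp1, a phosphatase that shuts off MAP kinases and is also induced by glucocorticoids, was at 3090 CPM in WT and 3452 CPM in CKO.

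Several inflammatory genes were lower in CKO. Of 21 measured members of that list 4 were more than 1.5 times lower, Clec4e, Nlrp3, Il1b and Il1rn, 5 more than 1.3 times lower, and 4 had a ratio above 1. By the same sizes 0.44% and 1.7% of all measured genes were lower. The list's median log2 ratio was −0.29. Il1b, the cytokine interleukin 1 beta (chromosome 2, 129364570 to 129371139), was at 768 CPM in WT and 499 CPM in CKO, 1.54-fold lower (1.46 to 1.62), and was found in 43.5% and 31.9% of cells against 4 of 43 and 1 of 34 lymphoid cells. Nlrp3, the sensor of the inflammasome that matures interleukin 1 beta, was at 217 and 134 CPM, 1.61-fold lower (1.47 to 1.78). Il1rn, the receptor antagonist of interleukin 1, was at 71.2 and 43.3 CPM, so that agonist and antagonist were both lower.

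Clec4e, the C-type lectin Mincle, which senses microbial glycolipids and dead cells, was at 55.9 CPM in WT and 26.3 CPM in CKO, 2.12-fold lower (1.73 to 2.62). Its neighbour and partner Clec4d was at 35.4 and 17.7 CPM. Ptgs2, the inducible cyclooxygenase, was at 57.2 and 37.8 CPM. Tnf, the gene of tumour necrosis factor, was at 99.9 and 80.2 CPM, a log2 ratio of −0.29 that did not pass 1.3 times. Il6, at 104 and 109 CPM, and the NF-kappaB feedback inhibitor gene Tnfaip3, at 360 and 340 CPM, were near 1. Tnfaip2, a gene induced by tumour necrosis factor, was at 87.6 CPM in WT and 50.6 CPM in CKO, 1.73-fold lower (1.48 to 2.02).

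Part of the chemokine genes were lower in CKO. Of 17 measured chemokines 4 were more than 1.5 times lower and 5 more than 1.3 times lower. For all measured genes these shares were 0.44% and 1.7%. The median log2 ratio of the chemokines was −0.28. Ccl3, an attractant of monocytes and T cells, was at 113 CPM in WT and 66.9 CPM in CKO, 1.69-fold lower (1.48 to 1.94). Ccl8, a chemokine of resident macrophages, was at 194 and 122 CPM, 1.59-fold lower (1.44 to 1.76), while Ccl7 was at 466 and 324 CPM and Ccl2 at 699 and 549 CPM. The interferon-induced T cell attractant Cxcl9 was at 47.0 and 19.7 CPM and Ccl5 at 21.6 and 7.52 CPM.

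Of the chemokines at the highest levels, Pf4, at 2415 CPM in WT and 2542 CPM in CKO, and Ccl6, at 1631 and 1695 CPM, lay near 1. The neutrophil attractant Cxcl2, at 1647 and 1339 CPM, had a ratio of 0.813 (0.787 to 0.839). The eosinophil attractant Ccl24 was at 322 and 330 CPM. Among receptors, Cx3cr1, the fractalkine receptor of monocytes and of part of the tissue macrophages (chromosome 9, 119901616 to 120069879), was at 144 CPM in WT and 75.5 CPM in CKO, 1.91-fold lower (1.69 to 2.16). It was found in 18.7% and 12.03% of cells, against 0 of 43 and 1 of 34 lymphoid cells. Ccr2 itself was at 845 and 730 CPM, a ratio of 0.864 (0.827 to 0.903).

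A few genes of lipid handling were lower as well. Plin2, which coats lipid droplets (chromosome 4, 86648386 to 86670060), was at 350 CPM in WT and 203 CPM in CKO, 1.72-fold lower (1.59 to 1.86), and was found in 40.8% and 29.9% of cells against 2 of 43 and 2 of 34 lymphoid cells. Lpl, the lipoprotein lipase, was at 1283 and 1009 CPM with a ratio of 0.787 (0.758 to 0.816), and the fatty acid transporter Cd36 was at 1370 and 1166 CPM. Fabp4, a fatty acid binding protein, was at 90.2 and 55.6 CPM, and the acid lipase Lipa was at 182 and 145 CPM. Of 19 measured genes of lipid-associated macrophages 2 were more than 1.5 times lower and 15 had a ratio under 1, with a median of −0.22. Of 20 measured genes of lipid uptake and storage 3 were more than 1.3 times lower and 5 had a ratio above 1. Across all measured genes 0.44% were more than 1.5 times lower and 1.7% more than 1.3 times lower. Of 16 genes of PPARG, LXR and cholesterol export 0 were more than 1.3 times lower and 8 were above 1. Trem2, at 64.7 and 53.9 CPM, had a log2 ratio of −0.23, near the median of the list, and Apoe, at 3238 and 3126 CPM, had −0.05.

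Sterol and fatty acid synthesis went the other way by small amounts. Of 10 measured sterol synthesis genes 9 had a ratio above 1, with a median of 0.13, and Hmgcs1, which makes the precursor of sterols, had a ratio of 1.41 (1.17 to 1.72). Of 7 measured fatty acid synthesis genes 6 were above 1, with a median of 0.17, and Acaca, the acetyl-CoA carboxylase, had a ratio of 1.61 (1.27 to 2.06). These values depended on the processing. Over the alternative settings described at the end, the log2 ratio of Acaca ran from 0.09 to 0.66. The median ran from 0.05 to 0.23 for the sterol list and from 0.07 to 0.22 for the fatty acid list. Only 1 of the sterol genes and 2 of the fatty acid genes were more than 1.3 times higher, where 1.54% of all measured genes were. A ratio above 1 was found for 3657 of the 6363 measured genes.

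Remodelling and monocyte genes filled the rest of the lowest 15. Mmp9, a gelatinase (chromosome 2, 164940780 to 164955850), was at 103 CPM in WT and 39.9 CPM in CKO, 2.57-fold lower (2.19 to 3.03), and was found in 14.2% and 5.26% of cells against 0 of 43 and 1 of 34 lymphoid cells. Thbs1, the adhesive glycoprotein thrombospondin 1 (chromosome 2, 118111876 to 118127133), was at 92.6 and 40.6 CPM, 2.28-fold lower (1.94 to 2.69). Axl, a receptor for dying cells, was at 95.6 and 59.2 CPM, 1.61-fold lower (1.40 to 1.87). Gngt2, a G protein subunit enriched in non-classical monocytes, was at 94.3 and 58.2 CPM, 1.62-fold lower (1.40 to 1.88). All 11 measured non-classical monocyte genes had ratios under 1, with a median of −0.31. So had all 14 genes of CCR2 and CD226 macrophages, with a median of −0.24. A ratio under 1 was found for 2706 of the 6363 measured genes. These lists overlap with those above, as they include Il1b and Ptgs2 of the inflammatory list and Nr4a1 of the immediate early list.

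Antigen presentation genes differed less. Of 10 measured MHC class II genes 0 passed 1.3 times in either direction, although the chains H2-Eb1, at 5231 CPM in WT and 4112 CPM in CKO, and H2-Ab1, at 3811 and 3157 CPM, had ratios of 0.786 (0.772 to 0.8004) and 0.828 (0.811 to 0.846). The median of the list was −0.12. Ciita, the master regulator of the class and a gene that BLIMP1 represses in plasma cells, was at 65.0 and 59.8 CPM.

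Genes linked to BLIMP1 in other cells were mostly at the level of the rest. Of 22 measured members of that list, 2 were more than 1.5 times lower, Il10 and Ccl8, and 0 more than 1.3 times higher. The shares of all measured genes were 0.44% and 1.54%. The list's median log2 ratio was 0.00. Bcl6 and Myc, which BLIMP1 represses as B cells become plasma cells, were at 154 and 19.4 CPM in WT and at 142 and 21.5 CPM in CKO. Irf4, an activator of Prdm1, was at 87.2 and 78.4 CPM, and Irf8, a determinant of the monocyte lineage, at 111 and 125 CPM. Of 31 measured macrophage transcription factors 1 was more than 1.3 times higher (Nfatc2, 58.0 and 79.8 CPM) and 0 were lower, while Spi1, which encodes the macrophage determinant PU.1, was at 300.4 and 293.7 CPM.

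Heat shock and glucocorticoid-induced genes were among the 15 highest. Fkbp5, a co-chaperone of the glucocorticoid receptor that the receptor itself induces (chromosome 17, 28399094 to 28517527), was at 22.9 CPM in WT and 65.3 CPM in CKO, 2.86-fold higher (2.29 to 3.58). With all UMIs in place of thinned ones the ratio was 2.17 (1.95 to 2.43). The paired genes of the inducible chaperone HSP70 were both higher: Hspa1b was at 39.9 and 98.1 CPM, 2.46-fold higher (2.08 to 2.92), and Hspa1a at 63.7 and 132 CPM, 2.07-fold higher (1.80 to 2.38). An Hspa1a UMI was found in 9.97% of WT cells and 17.2% of CKO cells, and in 0 of 43 and 0 of 34 lymphoid cells. Tsc22d3, which encodes the glucocorticoid-induced leucine zipper protein, was at 140 and 216 CPM, 1.55-fold higher (1.40 to 1.70).

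The chaperone and glucocorticoid genes did not move as a block. Of 15 measured members of the list 4 were more than 1.5 times higher and 5 more than 1.3 times higher, the fifth being Zbtb16 at 37.8 and 55.1 CPM, and 0 were lower by either size. The glucocorticoid-responsive genes Per1, at 108 and 94.1 CPM, and Sgk1, at 92.8 and 85.7 CPM, were not among them. The constitutive chaperones Hspa8, at 1001 and 947 CPM, and Hsp90aa1, at 265 and 263 CPM, and the HSP40 gene Dnajb1, at 45.5 and 44.9 CPM, were near 1. The median of the list was 0.16. Over 1.5 and 1.3 times higher were 0.236% and 1.54% of all measured genes. Heat shock and immediate early genes are also induced when tissue is dissociated; here their medians lay on opposite sides of 0, and a difference between preparations cannot be told apart from genotype. The lymphoid cells give no background for Fkbp5 or Tsc22d3, as 10 of 43 and 9 of 34 had Fkbp5 and 5 of 43 and 6 of 34 had Tsc22d3.

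Hspa1a and Hspa1b lie close together on chromosome 17 and have nearly the same upstream sequence, which is shown because the pair moved together. The RefSeq windows of 250 bases before the start (GRCm38.p6, both on the minus strand, at chr17:34972157-34972406 for Hspa1a and chr17:34959239-34959488 for Hspa1b) share 247 of 250 bases, and capitals mark the 3 positions that differ:
Hspa1a: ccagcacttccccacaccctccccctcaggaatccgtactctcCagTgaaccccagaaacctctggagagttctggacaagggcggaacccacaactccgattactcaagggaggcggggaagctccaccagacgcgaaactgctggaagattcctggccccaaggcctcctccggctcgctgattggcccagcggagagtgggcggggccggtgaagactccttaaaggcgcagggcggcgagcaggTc
Hspa1b: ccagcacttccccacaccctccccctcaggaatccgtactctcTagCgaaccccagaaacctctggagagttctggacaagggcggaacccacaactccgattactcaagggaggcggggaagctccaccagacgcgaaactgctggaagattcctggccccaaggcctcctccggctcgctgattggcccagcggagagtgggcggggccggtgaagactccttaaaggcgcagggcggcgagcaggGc
Both windows hold GAANNTTC, a pair of facing half-sites of the heat shock factor element, 104 bases before the start. Of the windows of genes more than 1.5 times higher in CKO 5 of 17 hold it, against 1 of 25 windows of the lower genes and 6.69% of all 32851 windows of that length. The 5 windows are those of Hspa1a, Hspa1b, Ank2, Rnase4 and Ang. Those of Rnase4 and Ang are the same window and those of the HSP70 pair are near copies, so they stand for 3 distinct sequences, and nothing is read from the difference in counts. This short motif was searched after a longer one had found no match. The counts of genes with near-identical copies such as these depend on how reads were assigned, so the values of Hspa1a and Hspa1b are uncertain one by one.

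Some markers of resident macrophages were higher in CKO, 5 of 30 past 1.3 times, where 1.54% of all measured genes were. Lyve1 (chromosome 7, 110850607 to 110863239) was at 170 CPM in WT and 259 CPM in CKO, 1.53-fold higher (1.40 to 1.67), and was found in 18.3% and 25.9% of cells, against 0 of 43 and 0 of 34 lymphoid cells. The haemoglobin scavenger receptor Cd163 was at 309 and 442 CPM, a ratio of 1.43 (1.34 to 1.53). Timd4, a receptor for dying cells on long-lived resident macrophages, was at 23.9 and 34.2 CPM, a ratio of 1.43 (1.12 to 1.82), and Folr2 was at 336 and 435 CPM. Over the alternative settings described at the end, the log2 ratio of Timd4 ran from 0.09 to 0.50. The lectin Mgl2, at 536 and 727 CPM, had a ratio of 1.36 (1.29 to 1.43).

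Retnla, a secreted resistin-like protein and by level the leading gene of the list, was at 8395 CPM in WT and 12220 CPM in CKO, 1.46-fold higher (1.44 to 1.47). A Retnla UMI was found in 69.2% of WT cells and 81.2% of CKO cells, against 11 of 43 and 3 of 34 lymphoid cells. Of 30 measured resident genes 28 had a ratio above 1, 0 were more than 1.5 times higher by the ratio of (CPM + 10), Lyve1 included, and 1, Ccl8, was more than 1.5 times lower. The median was 0.17. Mrc1, the mannose receptor, at 1822 and 1957 CPM, and the selenium carrier Selenop, at 1855 and 1988 CPM, were close to 1.

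A pair of secreted ribonucleases was higher in CKO. Rnase4, an RNA-degrading enzyme (chromosome 14, 51091077 to 51106151), was at 171 CPM in WT and 274 CPM in CKO, 1.60-fold higher (1.47 to 1.75). Ang, the angiogenic ribonuclease angiogenin (51091150 to 51102009), was at 26.3 and 51.0 CPM, 1.94-fold higher (1.56 to 2.42). Neither was found in any of the 43 and 34 lymphoid cells. The other measured members of the ribonuclease A list had ratios near or below 1.3, with Ear2, an eosinophil-associated ribonuclease and a non-classical monocyte marker, at 258 and 211 CPM.

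The spans of Rnase4 and Ang overlap on the same strand and RefSeq gives both the same start, so their counts may not be separate. Their shared window of 250 bases before the start (GRCm38.p6, plus strand, chr14:51090827-51091076) is shown because one promoter precedes both genes:
Rnase4 and Ang: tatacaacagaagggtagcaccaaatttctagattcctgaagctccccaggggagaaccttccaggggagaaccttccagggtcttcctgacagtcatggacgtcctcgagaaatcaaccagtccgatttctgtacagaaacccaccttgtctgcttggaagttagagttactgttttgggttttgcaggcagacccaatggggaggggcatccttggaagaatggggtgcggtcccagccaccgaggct
This window also holds GAANNTTC. The BLIMP1 core motif GNGAAAG, searched on both strands, was in 1 of 17 windows of the higher genes, in 3 of 25 windows of the lower genes (those of Nlrp3, Il1rn and Clec4d) and in 19.3% of all windows. Of the 15 higher and 28 lower genes, 10 and 17 matched the promoter table. A match is a description of letters and not a binding site.

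Genes of cell division were higher in CKO by small amounts. Of 16 measured members 15 had a ratio above 1, 3 were more than 1.3 times higher and 1 more than 1.5 times, with a median of 0.28. By these sizes 1.54% and 0.236% of all measured genes were higher. Ube2c, the ubiquitin-conjugating enzyme of the anaphase-promoting complex (chromosome 2, 164769898 to 164778822), was at 24.0 CPM in WT and 50.3 CPM in CKO, 2.10-fold higher (1.68 to 2.64). Stmn1, a regulator of microtubules, was at 77.5 and 106 CPM, and Mki67, a marker of cycling cells, was at 33.9 and 46.4 CPM. The replication genes Pcna, at 174 and 175 CPM, and Mcm3, at 38.2 and 41.0 CPM, were near 1. The log2 ratio of Ube2c, 0.83, was 0.28 in cells with at least 3 of the 5 macrophage genes and 0.15 once cells with 2 division markers were left out.

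The other genes of the highest 15 belong to no single group. Mfsd6, a membrane transporter of the major facilitator family (chromosome 1, 52656286 to 52727462), was at 26.3 CPM in WT and 63.9 CPM in CKO, 2.43-fold higher (1.97 to 3.00). Ank2, an adaptor between membrane and cytoskeleton, was at 24.2 and 51.5 CPM, 2.13-fold higher (1.71 to 2.68). Mamdc2 was at 43.8 and 72.8 CPM, 1.66-fold higher (1.40 to 1.98). The phosphoinositide phosphatase Inpp4a, at 85.9 and 131 CPM, the scaffold Pdlim1, at 93.9 and 142 CPM, and Stard8, at 141 and 209 CPM, had ratios of 1.53, 1.51 and 1.48.

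The edge of the set of 15 highest genes was narrow, as Stard8, at a log2 ratio of 0.54, was the last gene inside and Ifi27l2a, at 0.52, the first outside. On the low side Axl, at −0.61, was the last inside.

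**Figure D2:**
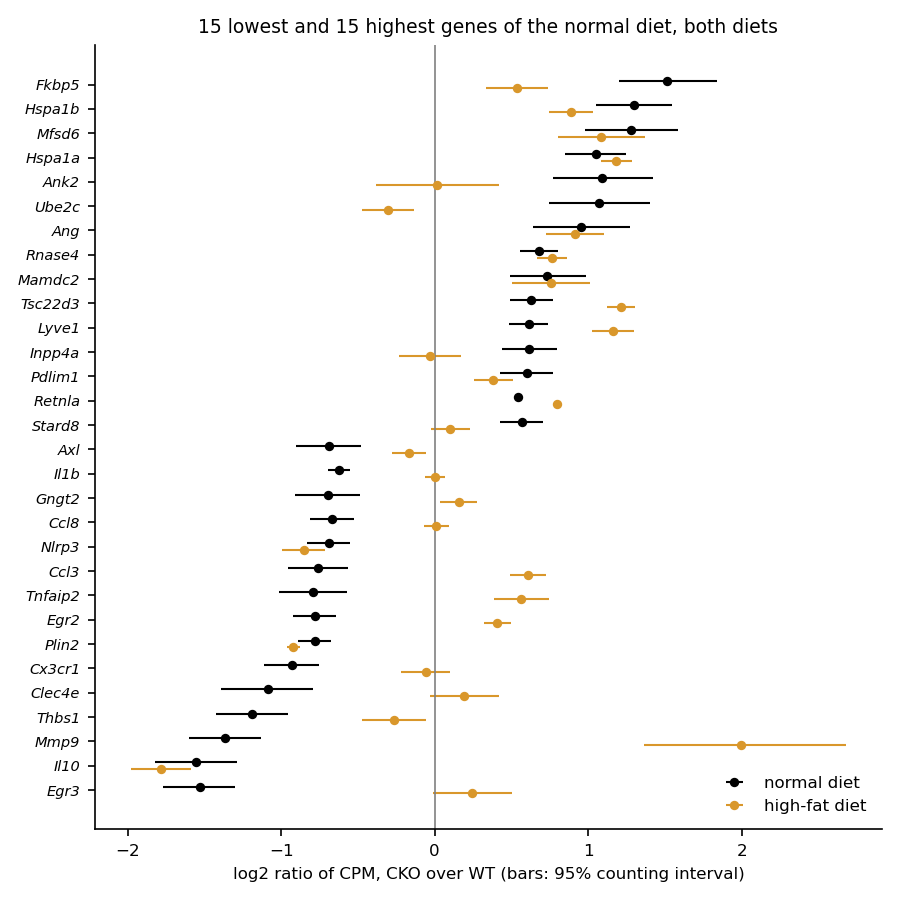
Log2 ratio of CPM, CKO over WT, for the 15 lowest and 15 highest genes of the normal diet (points, with 95% counting intervals as bars), under normal diet in black and HFD in orange. The HFD points of most higher genes lie right of 0, while those of the lower genes lie on both sides, with Il10 and Plin2 to the left and Mmp9 to the right.

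The genes of both sets were read under HFD as well. Of the 15 highest, 13 had a log2 ratio above 0 under HFD, 8 of them past 1.5 times. Under HFD 29.3% of the genes measured under normal diet had a ratio above 1. More than 1.5 times higher were 4.79% of all genes measured under HFD. Fkbp5 was at 33.4 CPM in WT HFD and 48.4 CPM in CKO HFD, Hspa1a at 119 and 269 CPM, Tsc22d3 at 144 and 334 CPM, and Lyve1 at 62.5 and 139 CPM. Ank2, at 9.78 and 9.89 CPM, was level there, and Inpp4a and Ube2c were on the lower side.

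Of the 15 lowest genes 6 were also lower under HFD, 3 of them past 1.5 times. Of all genes measured under normal diet only 29.3% had a ratio above 1 under HFD, so most were lower there. The count of 6 is therefore not read as agreement between the diets. Among all genes measured under HFD 14.5% were more than 1.5 times lower, and no difference from that share is read from 15 genes. Il10 was at 75.8 CPM in WT HFD and 22.1 CPM in CKO HFD, a ratio of 0.291 (0.253 to 0.333), close to the 0.341 under normal diet. Plin2, at 1079 and 570 CPM, and Nlrp3, at 97.9 and 54.1 CPM, were the other 2 genes past 1.5 times. Il1b, at 347.0 and 347.5 CPM, was level under HFD. Mmp9, Ccl3, Egr2 and Tnfaip2 were more than 1.3 times higher under HFD, as were 9.77% of all genes measured there. The HFD libraries differ from each other in depth, with median depths of 14600 and 4039 UMIs before thinning, and the difference between diets was not tested.

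**Figure D3:**
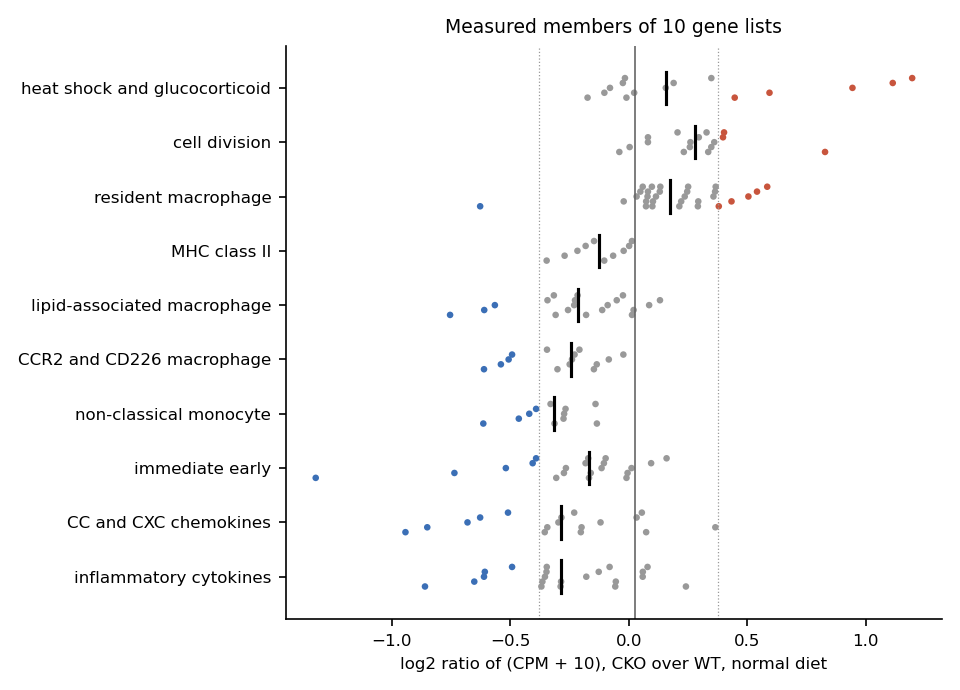
Log2 ratio of (CPM + 10), CKO over WT under normal diet, for the measured members of 10 gene lists (each point 1 gene, black ticks the list's median, dotted lines 1.3-fold differences, grey line the median of all measured genes). The inflammatory, chemokine, non-classical monocyte, and CCR2 and CD226 macrophage lists have medians between −0.31 and −0.24. Those of the resident, cell division and heat shock lists lie between 0.16 and 0.28. The classical monocyte list, which is not drawn, had a median of 0.08.

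Several pathways had no measured member past 1.3 times. Of 36 measured nuclear genes of oxidative phosphorylation, 27 lysosomal genes, 15 subunits of the vacuolar proton pump, 15 MHC class I genes, 15 glycolytic genes and 19 proteasome genes, 0 passed 1.3 times in either direction, and their medians lay between −0.06 and 0.08. Among 17 measured interferon-stimulated genes, Cxcl9 alone passed 1.3 times, and the median was −0.04. Among 42 cytoplasmic ribosomal protein genes 5 were more than 1.3 times lower, Rpl35, Rps27, Rps28, Rps29 and Rpl38, where 1.7% of all measured genes were. Of the 42, 30 had a ratio under 1, and the median was −0.08. Classical monocyte genes had a median of 0.08.

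The share of cells with resident markers was higher in CKO. A gate was set as at least 1 UMI in at least 2 of its marker genes at 2000 UMIs per cell. The resident gate (Lyve1, Folr2, Cd163, Timd4, Cbr2, F13a1) held 52.5% of WT cells (50.5 to 54.6) and 61.8% of CKO cells (60.0 to 63.6), a ratio of 1.18 (1.09 to 1.27). The CCR2 gate (Ccr2, Cd226, Lyz1, Napsa, Plac8) held 38.9% and 35.0%, a ratio of 0.899 (0.821 to 0.986). A gate is a range and not a cell type, and 40.1% of WT and 37.2% of CKO cells had exactly 1 or 2 resident markers, next to the limit. For the CCR2 gate these shares were larger, at 58.6% and 56.05%.

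The lipid gate (Trem2, Gpnmb, Cd9, Spp1, Lpl, Fabp5) held 17.7% of WT cells and 14.6% of CKO cells, a ratio of 0.827 (0.720 to 0.951). Exactly 1 or 2 lipid markers, next to the limit, were found in 64.9% of WT and 61.1% of CKO cells. The non-classical gate (Ear2, Ace, Treml4, Spn, Cd300e, Adgre4) held 8.80% and 7.27%, and its ratio of 0.825 had an interval that included 1 (0.676 to 1.01). The dividing gate (Mki67, Top2a, Cdk1, Birc5, Cenpf, Ube2c, Pclaf, Stmn1) held 6.91% and 9.09%, a ratio of 1.32 (1.08 to 1.61). Under HFD the resident share was also higher in CKO, at 48.9% against 25.6%, but the dividing share was lower, at 10.3% against 13.1%. The sort for CD64 can set the shares of these cells.

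**Figure D4:**
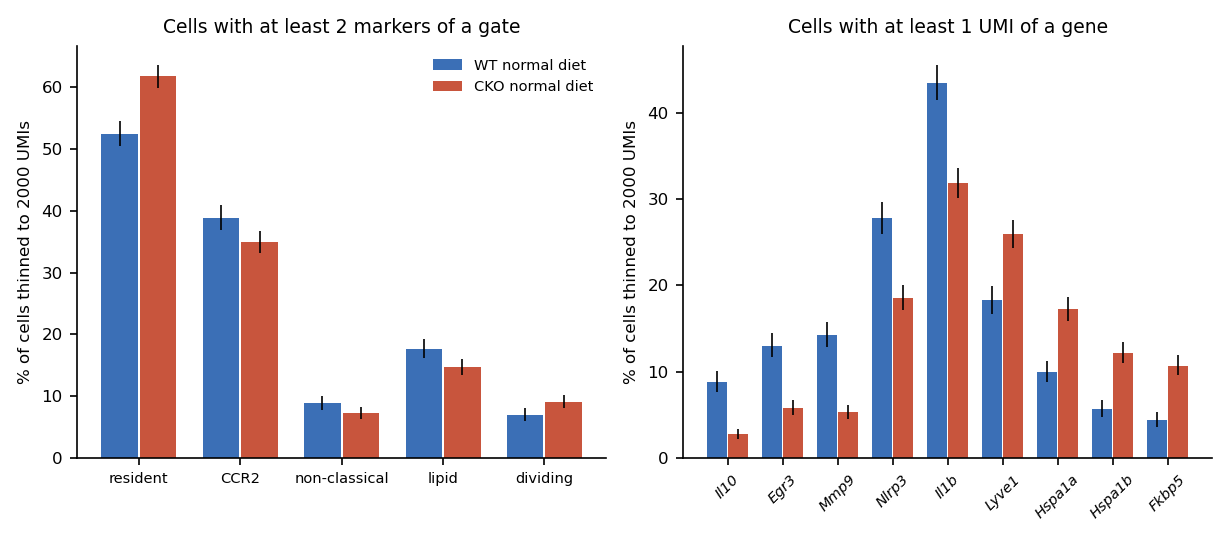
Left, percent of cells at 2000 UMIs with at least 2 markers of a gate in WT (blue) and CKO (red) under normal diet; right, percent with at least 1 UMI of a gene, bars with 95% counting intervals. The resident and dividing gates are higher in CKO, the other 3 gates lower, and Il10 was found in 8.80% of WT and 2.72% of CKO cells.

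Differences in the shares of cells can move pooled levels, so the same genes were read within 3 groups of cells. These were cells in the resident gate (1217 WT and 1727 CKO), cells in the CCR2 gate but not in the resident gate (612 and 628), and cells in neither (488 and 439). Of the 15 lowest genes 14 had a ratio under 1 in all 3 groups, the exception being Ccl3, which was at 126 CPM in WT and 134 CPM in CKO in cells in neither gate. Of the 13 highest genes that are no gate marker 12 had a ratio above 1 in all 3 groups, the exception being Rnase4, at 32.7 and 32.6 CPM in the CCR2 group. Past 1.5 times lower were 9 of the 15 in resident-gate cells, 8 in the CCR2 group and 8 in cells in neither gate, where 0.499%, 1.48% and 2.71% of all measured genes were. Past 1.5 times higher were 6, 5 and 7 of the 13, where 0.265%, 1.87% and 3.22% of all genes were. The genes were chosen on the pool of the same cells, so this describes where the differences lie and is no further evidence for them.

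Il10 was highest in resident-gate cells, at 127 CPM in WT and 39.4 CPM in CKO, a ratio of 0.309 (0.251 to 0.379). In the CCR2 group it was at 22.9 and 4.78 CPM, a ratio of 0.209 (0.071 to 0.514), and in cells in neither gate at 69.7 and 28.5 CPM. Egr3 was at 152 and 41.1 CPM in resident-gate cells, a ratio of 0.271 (0.222 to 0.330), and at 74.3 and 40.6 CPM in the CCR2 group. Mmp9 was at 168 and 58.2 CPM in resident-gate cells and at 22.1 and 11.9 CPM in the CCR2 group. Il1b, highest in the CCR2 group at 1235 and 857 CPM, was at 414 and 285 CPM in resident-gate cells, with ratios of 0.694 and 0.686.

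Thbs1 differed mainly outside the resident gate, as it was at 162 and 66.9 CPM in the CCR2 group but 28.8 and 21.1 CPM in resident-gate cells. Fkbp5 was at 25.1 and 76.1 CPM in resident-gate cells, a ratio of 3.04 (2.29 to 4.08), and at 22.9 and 48.6 CPM in the CCR2 group, a ratio of 2.12 (1.34 to 3.45). Hspa1a was at 81.3 and 167 CPM in resident-gate cells and 42.5 and 65.3 CPM in the CCR2 group. Retnla was at 9427 and 12650 CPM in resident-gate cells, a ratio of 1.34 (1.32 to 1.36), and at 9450 and 14700 CPM in the CCR2 group, a ratio of 1.55 (1.52 to 1.59).

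Within the resident gate the resident list was near the level of all genes. Its median log2 ratio was 0.03 there, next to 0.17 over all macrophages and 0.03 for all genes measured in the gate. Of the latter, 17 (0.265%) were over 1.5 times higher and 32 (0.499%) over 1.5 times lower. The resident list includes the genes that set the gate, so its median there is partly fixed by that choice. The inflammatory list had a median of −0.34 in resident-gate cells, with 9 of 21 members over 1.3 times lower where 2.51% of all genes were, and the chemokine list −0.37, with 7 of 16. The immediate early list had −0.27, with 7 of 20. In the CCR2 group and in cells in neither gate the immediate early medians were nearer to that of all genes, at −0.10 and −0.08. The chemokine medians there were −0.29 and −0.10, and the inflammatory medians −0.19 and −0.24. The cell division list, whose markers also set the dividing gate, had a median of 0.31 in resident-gate cells, 0.42 in the CCR2 group and 0.36 in cells in neither gate.

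**Figure D5:**
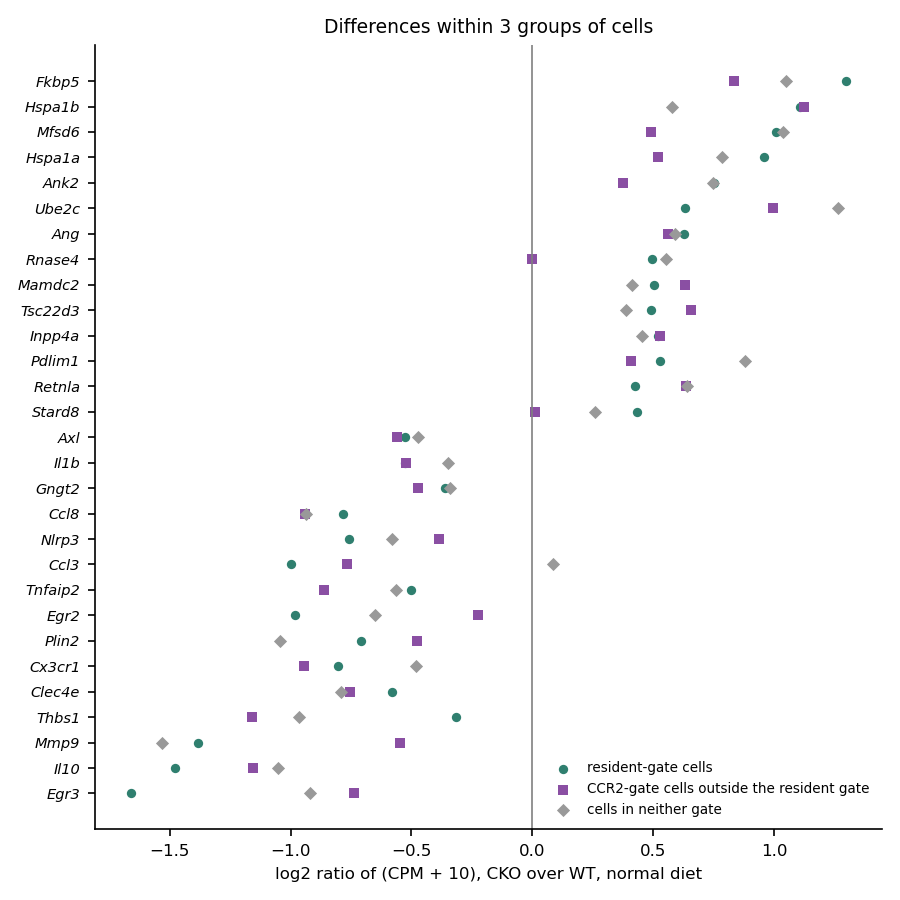
Log2 ratio of (CPM + 10), CKO over WT under normal diet, of the 15 lowest and 14 of the 15 highest genes within resident-gate cells (circles), CCR2-gate cells outside the resident gate (squares) and cells in neither gate (diamonds); Lyve1, a marker of the resident gate, is left out. Il10 lies left of −1 in all 3 groups and Fkbp5 right of 0.8, while Ccl3 lies on both sides of 0.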

How the data were processed

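The deposited matrices hold raw UMI counts per gene and called cell, written by Cell Ranger 7.0.0 per the file headers, with GRCm38 as the genome build per the submitters' processing notes. No other setting appears in the sources used here. Every processed file was checked for its unit, and whole counts were used as deposited. The feature and barcode files hold names only.

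Cells were kept by the rule stated at the start, thinned without replacement to 2000 UMIs (seed 1) and summed per library. Intervals are 95% Clopper-Pearson intervals, for ratios from the conditional binomial of the 2 UMI counts and for shares from the cell counts. Molecules of 1 cell are not independent, so these cover counting error only. No test was run, with 1 library per group. Ratios for ranking and for the 1.5 and 1.3 limits used CPM plus 10, among genes with at least 20 CPM in 1 library. Named genes were the 15 highest and 15 lowest ratios among genes with at least 50 CPM, without mitochondrial, ribosomal protein, haemoglobin, immunoglobulin, T cell receptor, predicted and other-lineage genes. They also include Prdm1, the 5 markers, and from each of 43 pathway lists the 3 members highest by level and the 3 farthest from 1. Members and lists were chosen with earlier results of these data known; other list members named in the text, and the genes named in counts, were chosen after their values were seen. Doublets were kept: Scrublet in scanpy 1.11.5 called 0 cells in both libraries, and removing the top scores was an alternative. Positions are from GENCODE M21 (99.6% of 32285 features matched), and upstream sequences from RefSeq (GRCm38.p6). Analysis used Python 3.11.15, numpy 2.4.6, scipy 1.17.1, pandas 2.3.3 and, for TMM factors, edgeR 4.0.16 in R 4.3.3. The thinning and ratio steps were tested on simulated data.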

Additional observations from a re-analysis of the deposited data

Results flagged for a closer look

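Some differences between CKO and WT were on opposite sides of 0 under the 2 diets, and none of these differences between diets was tested, since each group is 1 library. Mmp9 had a log2 ratio of −1.18 under normal diet and 0.71 under HFD, where its level was 2.70 CPM in WT and 10.7 CPM in CKO. Egr2 had −0.74 and 0.39, at 173 and 230 CPM under HFD. Ccl3 had −0.68 and 0.56, and Tnfaip2 −0.69 and 0.47. Of the gene lists, the chemokines had a median of −0.28 under normal diet and 0.60 under HFD, and cell division genes had 0.28 under normal diet and −0.23 under HFD. The median log2 ratio under HFD of all genes measured under normal diet was −0.17.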

How the results depend on the processing

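No paired analysis was possible because each group is 1 library, and no replicate could be left out. The 15 highest and 15 lowest genes kept their direction in 420 of 420 values over 14 alternatives, and 366 of these lay within the main counting interval. These genes were chosen as the extremes of the same cells, so their direction was largely set by that choice and is no further evidence. For all 223 named genes, 2946 of 3122 values kept their direction and 2800 lay within the interval. The counts of genes past a size depended on depth and limits. Without thinning, 14 genes were over 1.5 times lower (13 of them among the 28), and 43 and 64 were over 1.3 times higher and lower, of which 35 and 52 were among the 98 and 108. Thinning to 1000 UMIs gave 198 and 176 genes past 1.3 times. A pseudocount of 1 CPM gave 41 higher and 48 lower past 1.5 times and 261 and 187 past 1.3 times. A filter of 5 CPM gave 158 over 1.3 times higher, and a filter of 100 CPM gave 4 and 10 past 1.5 times and 28 and 45 past 1.3 times. Fewer or more low-count genes are measured under these filters by construction; for the other settings the cause was not tested. With both libraries weighted to the same shares of resident-gate and other cells, 9 genes were over 1.5 times higher, all 9 among the 15. The resident-gate share ratio was 1.29 without the marker rule, against 1.18. TMM scaling moved the median of all genes from 0.03 to 0.01. The shares of the CCR2, non-classical, lipid and dividing gates moved within their intervals under each of the 8 cell and thinning settings run for them.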

Other observations

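The ratio farthest from 1 came from very few cells. Igkc, the immunoglobulin kappa constant chain, was at 0.647 CPM in WT and 59.6 CPM in CKO, but before thinning its UMIs came from 6 kept cells in each library, and 1 CKO cell held 75.7% of the 3167 UMIs there. Ighm, the immunoglobulin mu chain, was at 196 and 302 CPM, and 1 CKO cell held 42.3% of its unthinned UMIs. Mucl1, at 35.6 and 11.6 CPM, came from 33 WT and 40 CKO cells, and 10 of the WT cells held 91.5% of its UMIs. These genes pass 1.5 times, and were named after their values were seen.

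A few other genes at low level passed 1.5 times outside the 15 highest and 15 lowest. Lower in CKO were C3, the central complement component, at 22.4 and 8.95 CPM, Zc3h12c, a zinc finger gene of the family that degrades cytokine RNA, at 30.9 and 14.9 CPM, and the small nucleolar RNA host gene Snhg15, at 44.2 and 25.9 CPM. Higher in CKO were Slpi, a secreted protease inhibitor, at 27.8 and 47.4 CPM, and the glycophorin gene Gypc, at 14.5 and 28.8 CPM. Under HFD, C3 was on the other side, at 27.9 CPM in WT and 58.5 CPM in CKO.

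Some genes of iron uptake passed 1.3 times, in a list whose median was −0.01 with 11 of 17 measured members below 1. Of the 17, 3 were more than 1.3 times higher, Cd163 included, where 1.54% of all measured genes were. Tfrc, the transferrin receptor, was at 105 CPM in WT and 147 CPM in CKO, a ratio of 1.40 (1.25 to 1.57), and Steap3, which reduces the iron taken up through it, was at 27.2 and 39.6 CPM, a ratio of 1.45 (1.16 to 1.83). Over the alternative settings the log2 ratio of Steap3 ran from 0.07 to 0.52. The iron transporters Slc11a1, at 117 and 96.1 CPM, and Slc11a2, at 33.2 and 29.9 CPM, were on the other side of 1. The ferritin genes Fth1 and Ftl1 had ratios of 0.970 and 0.997, and the exporter Slc40a1 was at 41.4 and 41.2 CPM. Igf1, the insulin-like growth factor, had a ratio of 1.33 (1.24 to 1.43), the chemerin receptor gene Cmklr1 1.35 (1.18 to 1.55), and the scavenger receptor Colec12 1.48 (1.27 to 1.72).

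Cells expressing division markers were unevenly spread over the other gates. In CKO 14.4% of lipid-gate cells and 12.3% of CCR2-gate cells also passed the dividing gate, against 7.32% and 7.66% in WT. In the resident gate the shares were 6.72% in CKO and 4.44% in WT. The lipid and dividing gates share no gene.

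Cavity macrophage genes, which mark cells of the peritoneum, summed to 162 CPM in WT and 115 CPM in CKO. Their defining factor Gata6 was at 1.94 and 1.07 CPM. The median log2 ratio over 5 groups of genes by span ran from 0.00 in the shortest (median 5.09 kb) to 0.05 in the longest (136 kb).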
